A study of Mus musculus with 6 samples.

Results

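The Cyp2c family, a group of cytochrome P450 enzymes, was followed in liver tissue from 6 male mice of the inbred albino strain BALB/c. The 3 exposed mice took microcystin-LR (MC-LR), a toxin of cyanobacteria that inhibits protein phosphatases, at 100 µg/L in their drinking water. The 3 control mice drank sterile water. Exposure started at 6 weeks of age and ran for 12 months in both groups, and the livers came from separate mice. Each was measured on 1 single-colour Agilent array. The series asks which liver transcripts differ after long exposure to the toxin. Members were the probes, controls excluded, whose name in the scanner files was Cyp2c29, Cyp2c37, Cyp2c38, Cyp2c39, Cyp2c40, Cyp2c44, Cyp2c50, Cyp2c54, Cyp2c55 or Cyp2c70. That gave 12 probes for 9 of the 10 genes, out of 41174 probes with 27376 gene names. No probe carried the name Cyp2c50, so its level was not analysed here on its own. All 12 probes were well above background on all 6 arrays and none was saturated, and they stood among 28507 probes that passed the same background filter and were tested.

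Cyp2c enzymes sit in the endoplasmic reticulum and receive electrons from NADPH through P450 oxidoreductase. They oxidise drugs and steroids, and several of them turn arachidonic acid into epoxides, which are vasoactive lipids, or into hydroxylated products. In the mouse liver the xenobiotic receptors CAR and PXR can induce several of these genes, and the enzymes belong to the detoxifying programme of hepatocytes. All 12 probes map to chromosome 19, where most of the genes lie in 1 cluster. In the RefSeq annotation of GRCm38.p6 the order of the listed members along the cluster is Cyp2c55, Cyp2c29, Cyp2c39, Cyp2c38, Cyp2c40, Cyp2c37, Cyp2c54, Cyp2c50 and Cyp2c70. Cyp2c44, whose current RefSeq symbol is Cyp2c23, lies apart from that cluster on the same chromosome.

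Hepatocyte markers were detected in all livers: of 15 listed, 13 had a probe, and all 13 were well above background on all 6 arrays. The same held for every tested marker of the endothelial, Kupffer, stellate, cholangiocyte and blood cell lists, so detection does not set hepatocytes apart. Between 64.9% and 73.7% of spots per array were well above background, and arrays correlated with each other at 0.980 to 0.994 over the tested probes. Controls 1 and 2 were on slide 1, while control 3 and all 3 MC-LR arrays were on slide 2, and the scan coincided with the slide. Control 3 is thus the only control that shares a slide with MC-LR arrays, and it stood apart from controls 1 and 2 in the Cyp2c values. For that reason the difference of each Cyp2c probe and the median of each gene list below is also given with other controls. These are control 3 alone, the controls without control 3, or both. The same is done for some genes outside the family, but not for all. Values are the deposited log2 signals, differences are MC-LR minus control on the log2 scale, and the SD is over 3 mice per group. Levels of different probes are not set against each other, since probes differ in how brightly they report. In these pieces of whole liver, fewer cells of a type and less RNA per cell cannot be told apart.

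No Cyp2c probe passed the test between MC-LR and control livers. The test was limma's moderated test, with Benjamini-Hochberg adjustment over the 28507 probes and a threshold of 0.05, and 3 of all the probes passed it, which is 0.0105%. The adjusted p of the 12 probes lay between 0.412 and 0.963, and none had an unadjusted p under 0.05, against 12.9% of all probes tested (7.89% higher and 5.03% lower in MC-LR livers). The mean was higher in MC-LR livers for 10 probes and lower for 2, against 50.4% of all probes with a difference above 0. The median difference was 0.17, between -0.22 and 0.45, and the median over all probes was 0.00. Probes of 1 gene target the same transcript, some probes list several close paralogs, and all were read in the same livers. These 12 values are thus not 12 separate measurements of the exposure. In 2 probes, 1 of Cyp2c40 and that of Cyp2c44, every MC-LR array was above every control array, and no probe had every MC-LR array below every control. Over all probes tested the groups lay apart in 20.3%, with MC-LR higher in 11.7% and lower in 8.54%.

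**Figure D1:**
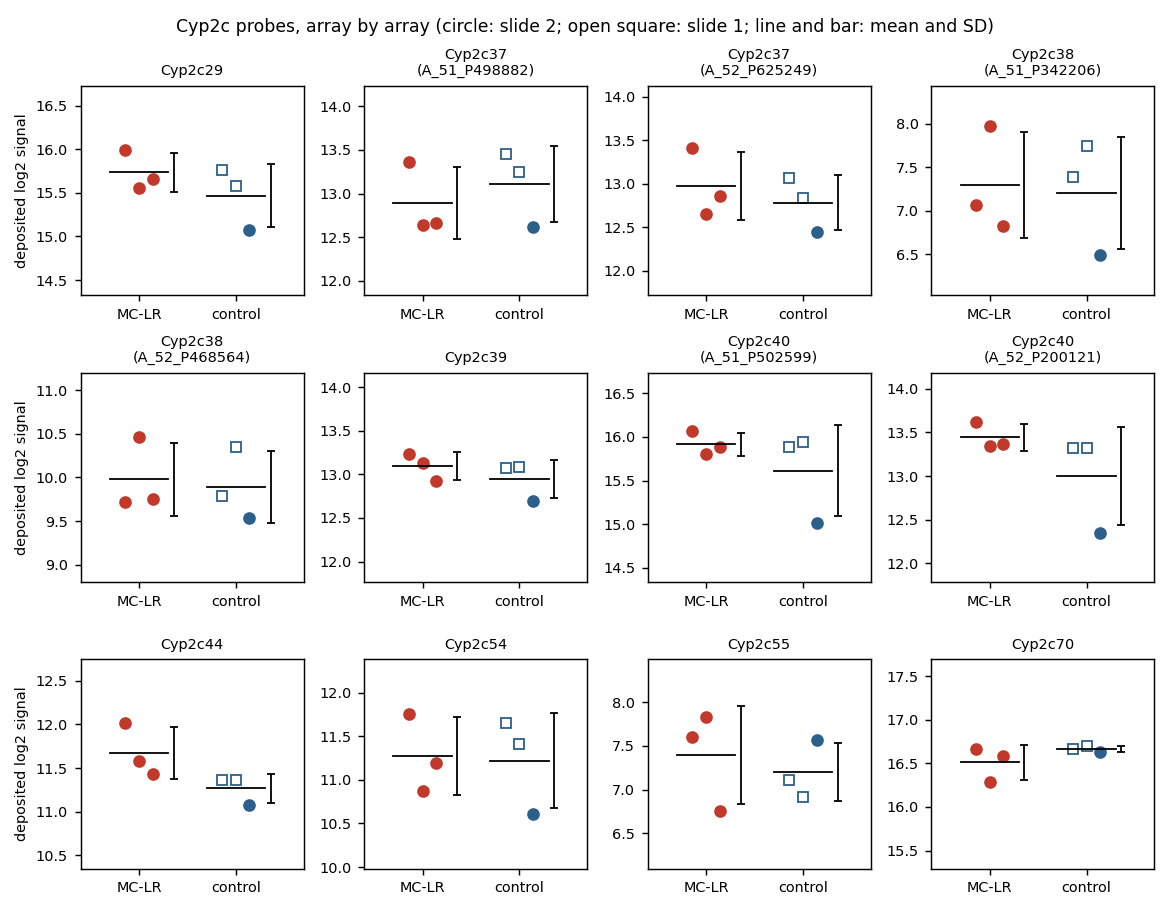
Deposited log2 signal (vertical axis) of each of the 12 Cyp2c probes in the MC-LR livers (left, 3 arrays) and the control livers (right, 3 arrays); filled circles are arrays on slide 2, open squares arrays on slide 1, horizontal lines group means and vertical bars 1 SD either side. Control 3, the filled control point, is the lowest of the 6 arrays in 10 panels; in Cyp2c70 it lies with the other controls, and in Cyp2c55 it is the highest control.

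Cyp2c40 and Cyp2c37, which hydroxylate arachidonic acid, held the highest and the lowest difference of any single Cyp2c probe. With the mean of a gene's probes, Cyp2c40 stood at 0.37, below Cyp2c44 at 0.41, and Cyp2c37 at -0.014, above Cyp2c70 at -0.15. Cyp2c40 had 2 probes. Probe A_52_P200121 read 13.62, 13.34 and 13.37 in MC-LR livers, against 13.33, 13.32 and 12.35 in control livers. The lowest MC-LR array lay just above controls 1 and 2, and control 3 lay well below the other 5 arrays. The means were 13.45 ± 0.16 in MC-LR livers and 13.00 ± 0.56 in control livers (SD, n = 3 each), a difference of 0.45 ± 0.28 (SE) with a 95% interval of -0.24 to 1.14 and a limma adjusted p of 0.547. The fold was 1.36. Without control 3 the difference was 0.12, against control 3 alone it was 1.10, and with slide as a random block it was 0.70. The groups overlapped under 75th percentile scaling, median scaling and normexp background correction.

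The second Cyp2c40 probe, A_51_P502599, read 16.06, 15.80 and 15.88 in MC-LR livers and 15.88, 15.95 and 15.01 in control livers. The groups overlapped, and control 3 was again far below the rest. The difference was 0.30 ± 0.26 (SE), with a 95% interval of -0.34 to 0.94 and a limma adjusted p of 0.659. Without control 3 it was 0.00, and against control 3 alone it was 0.90. The scanner files list 4 genes for A_51_P502599 (Cyp2c40, Cyp2c67, Cyp2c68 and Cyp2c69) and 2 for A_52_P200121 (Cyp2c40 and Cyp2c68). How much of either signal comes from each listed gene was not measured, so these values are not those of Cyp2c40 with certainty.

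Probe sequences show how closely these genes resemble each other. The 3 probes below were designed against different members and cover the same stretch of the coding sequence. They are shown because their overlap bears on how far a signal belongs to 1 gene, and capitals mark the bases that are the same in all 3 over the 43 positions that all 3 cover.
Cyp2c54 A_52_P154580: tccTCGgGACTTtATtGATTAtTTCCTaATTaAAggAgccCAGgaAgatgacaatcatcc
Cyp2c38 A_51_P342206: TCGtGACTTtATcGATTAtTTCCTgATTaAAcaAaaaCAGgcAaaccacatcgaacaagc
Cyp2c40 A_52_P200121: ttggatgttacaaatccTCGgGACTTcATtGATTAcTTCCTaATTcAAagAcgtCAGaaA
Over those 43 positions 30 bases, 69.8%, were the same in all 3 probes. In pairs, the Cyp2c40 and Cyp2c54 probes were identical at 38 of 46 aligned bases (82.6%), and the Cyp2c38 and Cyp2c54 probes at 40 of 57 (70.2%). How much each probe takes up from its neighbours' transcripts was not measured. In mm9 coordinates as the files give them, the ends of these probes are far apart, so each spans an intron of its gene: chr19:40122119-40144700 on the minus strand for Cyp2c54, chr19:39479273-39510583 on the minus strand for Cyp2c38, and chr19:39861388-39877026 on the minus strand for Cyp2c40.

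Cyp2c37, which is inducible through CAR, had 2 probes whose differences had opposite signs, neither past the test. A_51_P498882 (chr19:40086467-40086526, plus strand), whose listed accession is that of Cyp2c37 alone, read 13.37, 12.64 and 12.66 in MC-LR livers and 13.46, 13.25 and 12.62 in control livers. Its difference was -0.22 ± 0.29 (SE), with a 95% interval of -0.93 to 0.49 and a limma adjusted p of 0.785. A_52_P625249 (chr19:40076439-40076498, plus strand) lists accessions of both Cyp2c37 and Cyp2c50. Cyp2c50 is an epoxygenase with no probe under its own name. It read 13.41, 12.65 and 12.86 in MC-LR livers and 13.07, 12.84 and 12.44 in control livers. Here the difference was 0.19 ± 0.25 (SE), with a 95% interval of -0.41 to 0.79 and a limma adjusted p of 0.779. Groups overlapped on both probes, with MC-LR 1 above the other MC-LR arrays. Against control 3 alone the differences were 0.28 for A_51_P498882 and 0.53 for A_52_P625249, and without control 3 they were -0.46 and 0.02.

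Because both Cyp2c37 probes were read on the same array, their difference within an array removes what the array has in common. A_52_P625249 minus A_51_P498882 was 0.04, 0.01 and 0.20 in MC-LR livers, against -0.39, -0.41 and -0.17 in control livers. The groups did not overlap, and the shift was 0.40 on the log2 scale. A two-sided exact permutation test gave p = 0.1, the smallest that 3 against 3 allows, and 0.15 after Benjamini-Hochberg adjustment over the 3 genes with 2 probes. Of 4397 gene names with exactly 2 tested probes, 21.3% had groups that did not overlap in such a shift, and 12.3% had a shift at least as large in either direction. The shift was 0.25 against control 3 alone. Only A_52_P625249 also lists Cyp2c50, and its sequence is shown beside that of the Cyp2c40 probe with the most listed genes. With the Cyp2c40 probe shown above, these are the 3 member probes that list more than 1 gene.
Cyp2c37 A_52_P625249: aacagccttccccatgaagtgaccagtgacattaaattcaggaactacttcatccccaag
Cyp2c40 A_51_P502599: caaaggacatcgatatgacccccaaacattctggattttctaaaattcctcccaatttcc
The A_51_P502599 probe lies at chr19:39841822-39841881 on the minus strand. For Cyp2c40 the probe with fewer listed genes minus the other was -2.44, -2.46 and -2.51 in MC-LR livers and -2.56, -2.62 and -2.67 in control livers, a shift of 0.15 that 48.2% of the two-probe names matched or passed. Its groups did not overlap either, with the same exact permutation p of 0.1. The Cyp2c38 probes shifted by 0.01 (exact permutation p = 1), with overlapping groups.

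**Figure D2:**
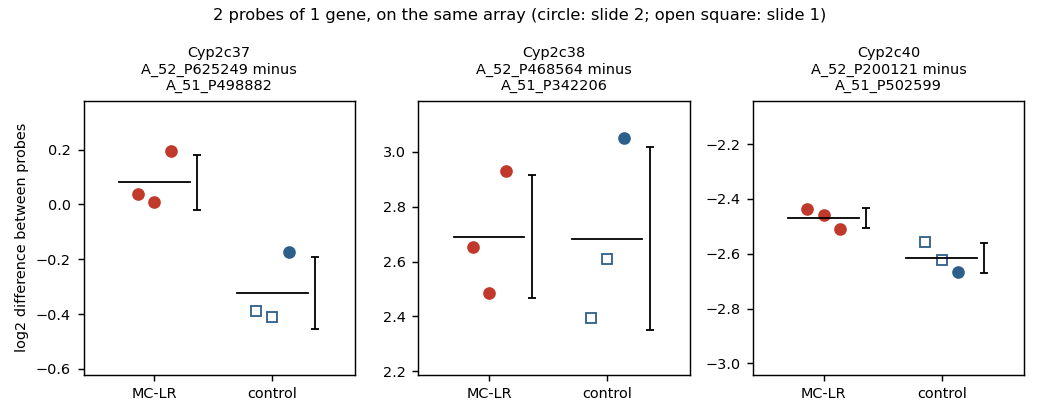
Log2 difference between the 2 probes of Cyp2c37, Cyp2c38 and Cyp2c40 on the same array (vertical axis), MC-LR livers left and control livers right; filled circles are arrays on slide 2, open squares slide 1, lines group means and bars 1 SD. The groups lie apart for Cyp2c37 (0.01 to 0.20 in MC-LR, -0.41 to -0.17 in control) and for Cyp2c40, and overlap for Cyp2c38.

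Among the epoxygenases, Cyp2c44 had the smallest p of the family. Its probe (chr19:44079535-44079594, minus strand) read 12.01, 11.58 and 11.43 in MC-LR livers, against 11.36, 11.36 and 11.08 in control livers. Every MC-LR array was above every control array, with MC-LR 1 the highest. The means were 11.67 ± 0.30 in MC-LR livers and 11.27 ± 0.16 in control livers (SD, n = 3 each), a difference of 0.41 ± 0.18 (SE) or 1.32-fold, with a 95% interval of -0.03 to 0.84. The unadjusted limma p was 0.0645 and the adjusted p 0.412. Unlike most of the family, Cyp2c44 kept most of its difference without control 3 (0.31), and it was 0.59 against control 3 alone. Its groups lay apart under all 5 scalings tried, but narrowly. With normexp the lowest MC-LR array was at 11.573 and the highest control at 11.568. With 1 array left out the difference was 0.24 to 0.53.

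Cyp2c29, an abundant epoxygenase whose gene is a classical target of CAR, read 15.99, 15.55 and 15.66 in MC-LR livers and 15.76, 15.57 and 15.07 in control livers (chr19:39403642-39403701, plus strand). MC-LR 1 was the highest array, control 3 the lowest, and the other 4 lay close together. The difference was 0.27 ± 0.21 (SE), with a 95% interval of -0.25 to 0.79 and a limma adjusted p of 0.628. It was 0.07 without control 3 and 0.67 against control 3 alone. Cyp2c39, an epoxygenase that also acts on retinoic acid, read 13.24, 13.13 and 12.92 in MC-LR livers and 13.07, 13.08 and 12.70 in control livers (chr19:39642568-39642627, plus strand). The groups overlapped, and the difference of 0.15 ± 0.15 (SE, limma adjusted p = 0.707) came to 0.02 without control 3. Its interval, -0.22 to 0.52, was the second narrowest of the family, after that of Cyp2c70.

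The remaining epoxygenases, Cyp2c38 and Cyp2c54, varied more between mice of 1 group than between groups. Cyp2c38 read 7.07, 7.98 and 6.83 in MC-LR livers and 7.39, 7.74 and 6.49 in control livers on A_51_P342206. On A_52_P468564 (chr19:39464438-39464497, minus strand) it read 9.72, 10.46 and 9.76 in MC-LR livers and 9.79, 10.35 and 9.54 in control livers. Both probes put MC-LR 2 highest, control 2 next and control 3 lowest, an order that no other member shared. The differences were 0.08 ± 0.42 and 0.09 ± 0.29 (SE), with limma adjusted p of 0.951 and 0.917, and the interval on A_51_P342206 ran from -0.94 to 1.10. Cyp2c54 read 11.76, 10.87 and 11.19 in MC-LR livers and 11.65, 11.41 and 10.60 in control livers. The groups overlapped over most of their range, with a difference of 0.05 ± 0.34 (SE), a 95% interval of -0.77 to 0.88 and a limma adjusted p of 0.963. Without control 3 the differences were -0.27 and -0.08 for the Cyp2c38 probes and -0.26 for Cyp2c54. Against control 3 alone they were 0.80, 0.44 and 0.67, so the sign depended on which controls were used.

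Cyp2c55, which makes hydroxylated arachidonic acid products and can be induced by CAR and PXR ligands, departed from the rest. It read 7.60, 7.83 and 6.76 in MC-LR livers and 7.11, 6.92 and 7.57 in control livers (chr19:39116674-39116733, plus strand). MC-LR 3 was the lowest array and control 3 the highest control, the reverse of the family's usual order among controls. The difference was 0.20 ± 0.32 (SE), with a 95% interval of -0.57 to 0.96 and a limma adjusted p of 0.823, and against control 3 alone it was -0.17.

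Cyp2c70, the enzyme that makes the muricholic bile acids of mice, was the steadiest member in control livers. It read 16.66, 16.29 and 16.58 in MC-LR livers, against 16.66, 16.69 and 16.63 in control livers (chr19:40227969-40228028, minus strand). The controls lay within a narrow band, control 3 included, and MC-LR 2 was the lowest array. The means were 16.51 ± 0.20 in MC-LR livers and 16.66 ± 0.03 in control livers (SD, n = 3 each). The difference was -0.15 ± 0.13 (SE), with a 95% interval of -0.46 to 0.15 and a limma adjusted p of 0.636. Leaving out control 3 gave -0.17 and control 3 alone gave -0.12, so this member alone had a difference below 0 in all 3 comparisons.

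**Figure D3:**
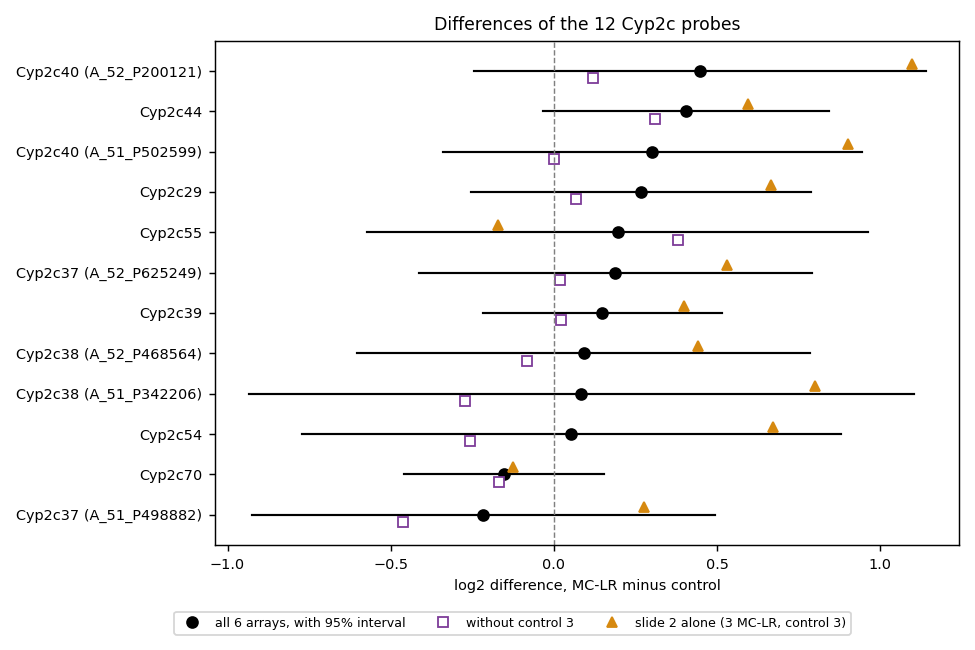
Log2 difference, MC-LR minus control (horizontal axis), of the 12 Cyp2c probes, highest at the top; circles with lines are the fit of all 6 arrays and its 95% interval, open squares the values without control 3, triangles the values on slide 2 alone (3 MC-LR arrays against control 3). All 12 intervals include 0, and on all probes but that of Cyp2c55 the value against control 3 alone is above the value of the full fit, up to 1.10 for Cyp2c40.

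Array by array, the family's most marked feature was its low signal in control 3. After each probe was centred on its mean over the 6 arrays, the median over the 12 probes was 0.34, 0.07 and -0.05 on MC-LR 1, 2 and 3, and 0.11, 0.10 and -0.42 on controls 1, 2 and 3. Control 3 was the lowest of the 6 arrays on 10 of the 12 probes, against 23.3% of all probes tested. The exceptions were Cyp2c55 and Cyp2c70. MC-LR 1 was the highest array on 7 of the 12, against 16.4% of all probes tested. Control 3 minus the mean of controls 1 and 2 had a median of -0.56 over the family, and of -0.02 over all probes. It was -0.90 and -0.98 on the Cyp2c40 probes, -1.07 and -0.53 on those of Cyp2c38, -0.93 on Cyp2c54 and -0.60 on Cyp2c29. The same 10 probes were lowest in control 3 when the scanner signals were scaled by quantile, 75th percentile or median, and after normexp background correction. All of these scale the arrays to each other. In the processed signals without such scaling, control 3 was lowest only for Cyp2c29, both Cyp2c40 probes, Cyp2c54 and A_51_P342206 of Cyp2c38.

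Accordingly, the size of the difference rested on which controls it was taken from. MC-LR minus control 3 had a median of 0.56 over the 12 probes, with 10 of them above 0, against 53.9% of all probes. Every MC-LR array was above control 3 on those 10, against 33.3% of all probes. Both counts follow from control 3 being the lowest array on the same 10 probes and are no further result. MC-LR minus the mean of controls 1 and 2 had a median of 0.01, with 7 probes above 0. With slide as a fixed block, which takes the MC-LR effect from slide 2, both Cyp2c40 probes and Cyp2c29 had an unadjusted p under 0.05, a share of members to be read against 15.3% of all probes. Their differences were 1.10 ± 0.16 for A_52_P200121, 0.90 ± 0.15 for A_51_P502599 and 0.67 ± 0.21 for Cyp2c29 (SE). The limma adjusted p values were 0.137, 0.144 and 0.262, so none passed there either, against 0.0456% of all probes, and this fit has a single control liver on slide 2 behind it.

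**Figure D4:**
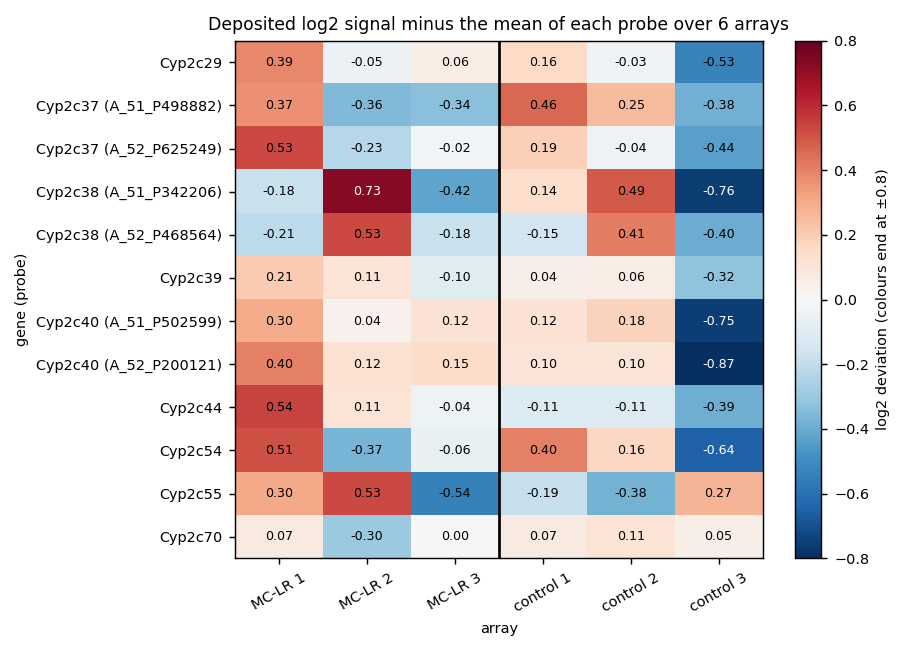
Deposited log2 signal of the 12 Cyp2c probes (rows) on each array (columns, MC-LR left of the line and control right of it) minus the mean of the probe over the 6 arrays; red is above and blue below that mean. The control 3 column is blue in all rows but those of Cyp2c55 and Cyp2c70, the MC-LR 1 column is red in all rows but those of Cyp2c38.

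Values of other cell types and liver zones moved with control 3 as well. Among 13 markers of pericentral hepatocytes, the cells around the central vein where many P450 enzymes are made, 12 had a difference above 0 and none passed the test. Their median difference was 0.27 with all controls, 0.69 against control 3 and 0.28 against controls 1 and 2, and control 3 was 0.41 lower than the mean of controls 1 and 2. Their summed level, the log2 of the sum of their linear signals, was 18.3 to 18.5 in MC-LR livers and 17.7 to 18.2 in control livers. Cyp2e1, a pericentral P450 enzyme that oxidises ethanol, read 16.38, 16.36 and 16.36 in MC-LR livers and 15.82, 15.89 and 15.64 in control livers. Every MC-LR array was above every control, with control 3 the lowest, and the difference was 0.58 with a limma adjusted p of 0.210. Control 3 was higher than the mean of controls 1 and 2 in markers of Kupffer cells or macrophages (10 tested, median 0.67), stellate cells or fibroblasts (10 tested, 0.50) and cholangiocytes (6 of 8 tested, 0.93). In periportal hepatocyte markers (10 tested) that median was 0.34, in blood cell markers (10 tested) 0.36 and in endothelial markers (10 tested) -0.29. Between MC-LR and control livers the median difference was -0.33 in endothelial markers (9 of 10 below 0), -0.23 in those of Kupffer cells or macrophages (9 of 10) and -0.18 in those of stellate cells or fibroblasts (9 of 10). It was -0.47 in blood cell markers (8 of 10 below 0), -0.24 in cholangiocyte markers (4 of 6) and -0.03 in periportal markers (5 of 10). Against control 3 alone these medians were 0.02, -0.65, -0.49, -0.64, -0.72 and -0.20 in the same order of lists. Against controls 1 and 2 they were -0.36, -0.11, 0.04, -0.25, -0.01 and 0.05, so size or sign depended on the controls used. None of these markers passed the test, and their part in the Cyp2c values was not tested. Summed hepatocyte markers were at 20.5 to 20.6 in MC-LR livers and at 20.6 in each control liver.

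Genes that supply P450 enzymes with electrons and haem had 17 of 17 listed members tested, and none passed. The difference was above 0 for 11, with a median of 0.11, which was 0.15 against control 3 and -0.01 against controls 1 and 2. Por, the reductase that feeds electrons to microsomal P450 enzymes, read 15.70, 15.46 and 16.18 in MC-LR livers and 14.08, 14.52 and 15.03 in control livers. Alas1, the rate-limiting enzyme of haem synthesis in the liver, read 15.53, 15.35 and 16.06 in MC-LR livers and 13.78, 14.85 and 14.93 in control livers. For both genes every MC-LR array was above every control, with differences of 1.24 and 1.12 and limma adjusted p of 0.247 and 0.308. Both were higher in control 3 than in controls 1 and 2, as was Cyp2c55, though Alas1 was only slightly above control 2. Against control 3 alone the differences were 0.75 for Por and 0.72 for Alas1.

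Regulators of these genes, among them CAR, PXR and liver transcription factors, had 24 of 25 members tested, 15 above 0, with a median of 0.12 and none past the test. The median was 0.23 against control 3 and 0.07 against controls 1 and 2. Nr0b2, a nuclear receptor without a DNA-binding domain that represses bile acid synthesis genes, had a difference of -0.98 (limma adjusted p = 0.240). Rxra, the partner with which CAR and PXR bind DNA, had 0.54 (adjusted p = 0.277, limma), and 0.29 against control 3 alone. Of arachidonic acid epoxygenases, omega-hydroxylases and epoxide hydrolases outside Cyp2c, 19 of 23 were tested, 12 were above 0 and none passed, with a median of 0.19 (0.30 against control 3 and 0.11 against controls 1 and 2). Control 3 was the lowest array for 12 of these 19 genes. Cyp2j11, with a difference of 0.46 (limma adjusted p = 0.293), and Cyp4a12b, with a difference of 0.39 (limma adjusted p = 0.299), had the smallest p of that list. Against control 3 alone those differences were 0.22 and 0.59. Other P450 genes of families 1 to 3 had 29 of 34 members tested and none past the test. Of them 21 were above 0, the median was 0.32, and 10 higher and 1 lower had an unadjusted p under 0.05. Over all probes tested 50.4% were above 0, and 7.89% higher and 5.03% lower had such a p. Their median was 0.20 against control 3 and 0.18 against controls 1 and 2, beside 0.56 and 0.01 for the Cyp2c probes. Control 3 was nevertheless the lowest array for 13 of these 29 genes, against 23.3% of all probes. Among them were Cyp2e1 and all 7 Cyp2d genes tested, a subfamily singled out after its values were seen. In other subfamilies control 3 was the lowest array for 0 of 6 Cyp3a genes, 1 of 4 Cyp2a genes and 3 of 4 Cyp2b genes. Cyp2a22 stood at 13.58, 13.39 and 13.47 in MC-LR livers and 12.31, 12.46 and 12.58 in control livers, a difference of 1.03 with a limma adjusted p of 0.163. Bile acid synthesis and conjugation, which leads to the substrates of Cyp2c70, had 12 of 12 members tested, 9 above 0, a median of 0.09 and none past the test. That median was 0.38 against control 3 and -0.05 against controls 1 and 2. Acox2, a peroxisomal oxidase that shortens bile acid side chains, had -0.56, and Akr1d1, a steroid reductase of that pathway, had 0.50.

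Clock and PAR bZIP genes were read because the PAR bZIP factors Dbp, Tef and Hlf are known in mice to drive P450 and Por genes with the time of day. All 19 were tested and none passed, but 15 were above 0, against 50.4% of all probes. Their median was 1.07 (0.82 against control 3 and 1.31 against controls 1 and 2). An unadjusted p under 0.05 was found for 11 higher and 2 lower, against 7.89% and 5.03% of all probes. Dbp read 15.84, 15.81 and 14.27 in MC-LR livers and 9.86, 12.77 and 14.21 in control livers. Control 3 thus came close to the lowest MC-LR liver, and the difference of 3.03 had a limma adjusted p of 0.353. It was 1.10 against control 3 alone, 1.82 without control 1 and 3.99 without control 3. Tef had 2.09 (limma adjusted p = 0.232), and 1.26 against control 3 alone. Hlf had 0.99 (limma adjusted p = 0.178), and in both genes every MC-LR array was above every control. The time of day at which livers were taken is not given in the sources used here, and its part in the Cyp2c values was not tested. Cry2, a repressor of the clock, had 1.21 (limma adjusted p = 0.210), and 0.82 against control 3 alone. Hepatic acute phase genes, which rise while many P450 genes fall in inflammation, had 22 of 22 tested, 19 of them below 0, a median of -0.26 and none past the test. The median was -0.18 against control 3 and -0.34 against controls 1 and 2. Stat3, which carries the interleukin-6 signal, had -0.75, and Lbp, which binds lipopolysaccharide, -0.85.

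Of the Cyp2c genes outside the list, Cyp2c65 and Cyp2c66 had a probe under their own name. Cyp2c65 read 6.39, 6.06 and 6.09 in MC-LR livers and 6.50, 6.29 and 5.56 in control livers, with control 3 the lowest as in most of the family. Its difference was 0.06 (limma adjusted p = 0.940), 0.62 against control 3 alone and -0.22 without control 3. Cyp2c66 read 6.38, 6.39 and 6.46 in MC-LR livers and 6.37, 6.53 and 6.52 in control livers, with no such drop and a difference of -0.06 (limma adjusted p = 0.825), and -0.11 against control 3 alone.

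The genes whose pattern was most like that of the family were found by Pearson's r over the 6 arrays with the mean of the 12 centred profiles, among 14790 gene names. Among the 5 closest were Wfs1 (0.994), Zfand5 (0.993), Slc38a7 (0.992) and Insr (0.992). Wfs1 read 10.64, 10.55 and 10.48 in MC-LR livers and 10.59, 10.57 and 10.30 in control livers, over a far narrower range than Cyp2c40. Its low in control 3 follows from how it was picked. For Cyp2c44 the closest were Zranb1 (0.998), Tfap4 (0.997) and Aptx (0.992). These likenesses rest on 6 arrays that share 2 slides and are given as a description. None of these named genes passed the test.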

How the data were processed

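Total RNA of 3 MC-LR and 3 control livers was amplified, labelled with Cy3 and hybridised to single-colour arrays, per the labels. Spot intensity in the scanner files was extracted with Agilent Feature Extraction, version 10.7 per the submitters' processing notes, and their processed signal is background-subtracted and detrended, per the file headers. The deposited table holds log2 values that the authors quantile normalized in GeneSpring, per the series' design text. Its columns matched log2 of their own array's processed signal at r of 0.998 to 1.000, with a median of 5.94 each. These values were used as given, 1 probe as 1 feature. Probe coordinates are those of the files (mm9, per the file headers), and exon annotation of that build was not used here. Sequences are the 60-base probes of the scanner files.

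Probes above background on every array of either group (3 arrays each) were tested, 28507 of 41174. The two-sided test was limma's lmFit with eBayes (limma 3.58.1, R 4.3.3), on 4 residual degrees of freedom and 2.18 from the prior, and p-values were adjusted by Benjamini-Hochberg over the tested probes. Only the limma step was tested on simulated data, drawn with independent noise and without a slide effect. The number of arrays limits the precision. Same-numbered arrays deviated together at r of 0.17, -0.30 and -0.18, and differently numbered ones at -0.20 to 0.35. The labels do not say whether the numbers pair the mice, and so few arrays cannot settle it. The main fit treated the mice as unpaired.

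The members, gene lists and marker lists were chosen with earlier results of these data known. Named are all member probes, per list the members past the threshold (up to 4) or else the 2 with the smallest p, plus Dbp, Tef and Hlf, and the 5 and 3 genes most like the family and like the member with the smallest p, of which 1 is not reported here. Markers are given as lists. Alternatives were other scalings, background correction, filters, gene summaries, slide and replicate blocks, variance models, array weights and each array left out.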

Additional observations from a re-analysis of the deposited data

How the results depend on the processing

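None of the Cyp2c probes passed the test in the full fit or under any of 20 alternatives. Over all probes, 3 passed in the full fit, 1 with 75th percentile scaling, 1 with median scaling, 1 with the strict background filter, 13 with slide as a fixed block, 0 on slide 2 alone (limma, 3322 at an unadjusted p under 0.05), 0 with the replicate block (limma, 2875 unadjusted) and 1203 with array weights, which set control 3 lowest at 0.28. Leaving out 1 array gave 1 to 70, the 70 without control 3. The cause was not tested. The Cyp2c median difference of 0.17 was 0.17 with the replicate block, 0.56 with slide as a fixed block, 0.56 on slide 2 alone, and 0.01 to 0.27 with 1 array left out, lowest without control 3. With slide as a fixed block or slide 2 alone, the sign turned for Cyp2c37 A_51_P498882 (0.28) and Cyp2c55 (-0.17). With array weights it turned for Cyp2c38 (-0.17 on A_51_P342206, -0.022 on A_52_P468564), Cyp2c54 (-0.077) and Cyp2c65 (-0.12), and 12 of the genes named from the lists passed at adjusted p values of up to 0.0428 (limma), none of them Cyp2c. With 1 array left out, signs turned within these ranges: Cyp2c37 A_52_P625249 -0.028 to 0.35, Cyp2c38 A_51_P342206 -0.27 to 0.35, Cyp2c38 A_52_P468564 -0.15 to 0.32, Cyp2c54 -0.26 to 0.27, Cyp2c55 -0.020 to 0.51, Cyp2c65 -0.22 to 0.25, Insr -0.063 to 0.22 and Wfs1 -0.024 to 0.12. The number of Cyp2c probes with groups apart, 2, was added after seeing the data. It was 1 with 75th percentile or median scaling, with normexp (Cyp2c44 alone in these), and with 1 value per gene. On slide 2 alone it was 10, all higher in MC-LR livers, against 33.3% of all probes. These are the 10 probes lowest in control 3 and are no further result. Without MC-LR 3 it was 4, all higher. Groups lie apart more readily with fewer arrays, and the share over all probes without MC-LR 3 was not computed. The shift between probes was 0.20 for Cyp2c40 and -0.36 for Cyp2c38 on slide 2 alone. On slide 2 the single control is assumed to vary like the MC-LR arrays. With 3 mice per group and 4 residual degrees of freedom, the 95% intervals of single Cyp2c probes allow differences of up to 1.14.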
